A study of Homo sapiens with 18 samples.

Results

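The 10 genes described here encode parts of the actin and intermediate filament cytoskeleton and proteins that act on them. They are the actins ACTB and ACTG1, the actin monomer buffers TMSB4X and TMSB10, the filament binders PLS3 and CNN3, the intermediate filament protein VIM, the proteases CAPN2 and CAPN5, and the small GTPase RHOB. They were taken by name, as 10 of the 35616 genes in the deposited expression table, and were chosen by their measured scaled TPM across the 6 groups. Every level and difference given for them below is therefore a description without a test. HUDEP-2 is an established human line of erythroid progenitors derived from umbilical cord, and all 18 libraries came from it. RNA was sequenced from cells with the unedited genotype (WT) and from cells carrying a disrupted beta-globin gene (HBBko), at 3 stages, namely before differentiation and at 48 h and 5 d of it, and each of the 6 groups has 3 libraries. How many clones the HBBko cells came from is not given in the sources used here, so effects of a clone and of the genotype cannot be told apart. The labels call the cultures triplicates without saying that they were started separately, so the spread between libraries may be technical in part.

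In a red cell precursor the cytoskeleton is rebuilt during differentiation. Actin shifts from long, dynamic filaments under the progenitor membrane to the short protofilaments of the spectrin skeleton, vimentin filaments are lost before the nucleus is expelled, and the enzymes and buffers of rapid actin turnover are withdrawn. Beta-thymosins hold actin monomers in reserve, plastins tie filaments into bundles, calponins lie along filaments, calpains cut cytoskeletal proteins in response to calcium, and small GTPases signal to the machinery that assembles filaments.

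Levels are in scaled TPM, a per-length abundance that the authors further scaled between libraries, so levels of different genes can be compared per length. For ACTB, ACTG1 and CAPN5 that comparison is less sure, since their scaled TPM departs from the authors' other values, as given below. Library sums ran from 783213 to 1508340 scaled TPM. The number of reads is unknown, and the precision comes from the 3 libraries of a group alone. Across genes, the lowest correlation between libraries of a group was 0.987, between undifferentiated WT replicates 2 and 3. Lowest values were 0.995 to 0.998 in the other groups. By globin share undifferentiated WT replicate 3 stood apart, with 3.81% against 2.34% and 2.27% in replicates 1 and 2. Globin transcripts held 1.60% to 3.81% of the signal in undifferentiated libraries, 12.7% to 24.5% at 48 h and 38.0% to 51.8% at 5 d. All 10 erythroid markers examined, among them KLF1, were at 29.3 scaled TPM or above in every library. None of 10 stromal and endothelial markers passed the filter on low values, and their summed level was at most 0.683 scaled TPM in any library. Of 9 megakaryocyte markers only ITGA2B passed, with the platelet genes PF4 and PPBP at 0 in all 18 libraries, and of 10 myeloid markers AZU1 and CD68 passed, with S100A9 at 0 throughout. No lymphoid marker of 6 passed.

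The genotype differences took several forms. PLS3 and CAPN5 were lower and CNN3 and CAPN2 higher in HBBko cells at all 3 stages, with no overlap between libraries of the same stage. RHOB was higher in HBBko cells mainly before differentiation. TMSB4X, TMSB10 and VIM stood below their undifferentiated level at 48 h and 5 d in both lines and were lowest relative to WT at 5 d. ACTB and ACTG1 overlapped between the lines before differentiation and were lower in HBBko cells by mean level at 48 h and 5 d, with a sign that turned for ACTB at 5 d after rescaling to equal library sums. All 10 genes passed the filter on low values, which asked for 1 scaled TPM or more in 3 or more of the 18 libraries, PLS3 through its WT libraries and 1 HBBko library at 48 h. In a limma fit across all 12005 genes that passed this filter, with genes called at an adjusted p under 0.05, undifferentiated HBBko cells had 5 of the 10 called higher and 2 called lower, where 43.3% of all tested genes were called, 20.9% upwards and 22.3% downwards. At 48 h the counts were 2 higher and 4 lower beside 18.7% of tested genes, 9.52% higher and 9.21% lower. At 5 d they were 3 higher and 6 lower beside 51.3%, 26.5% higher and 24.8% lower. HBBko and WT libraries did not overlap for 6 of the 10 in undifferentiated cells (46.2% of tested genes), for 8 at 48 h (51.9%) and for 9 at 5 d (59.9%). Since the choice of genes used these comparisons, nothing is read from the counts.

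**Figure D1:**
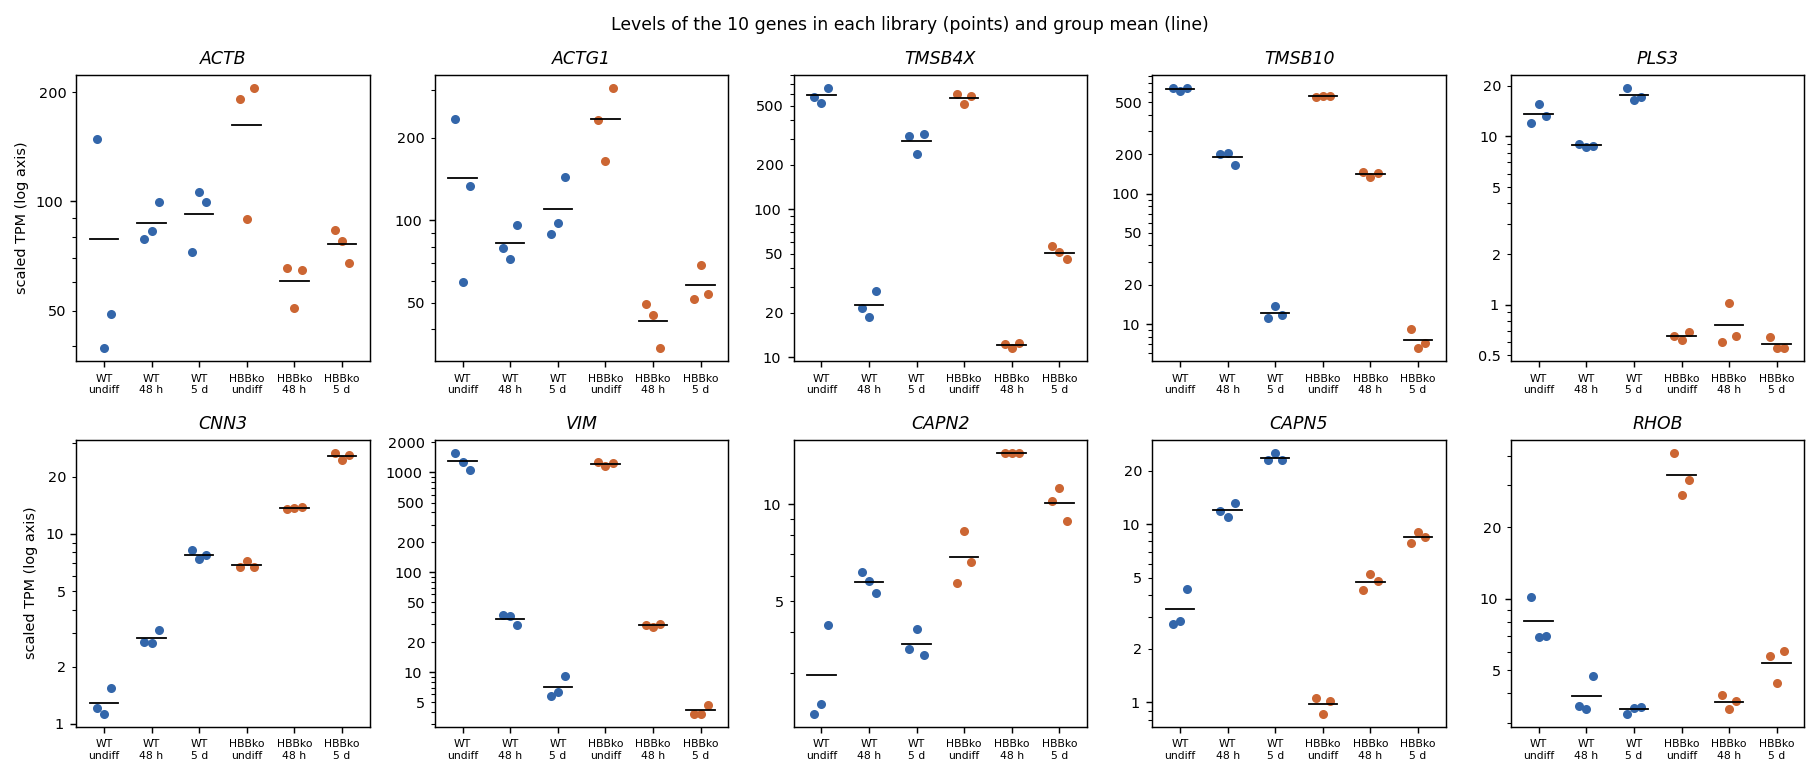
Scaled TPM (log axis, a separate range for each gene) of the 10 genes in WT (blue) and HBBko (orange) libraries, with each point a library and each line the mean of 3. PLS3 stayed between 0.552 and 1.03 scaled TPM in all 9 HBBko libraries, and TMSB4X in WT cells dipped at 48 h and rose again at 5 d.

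Promoter sequence is shown for 5 of the genes, chosen as examples. PLS3 had the widest ratio of means between the lines at a stage, and RHOB the widest after PLS3, TMSB4X and CNN3. TMSB4X fell and returned between stages. The ACTG1 and CAPN2 windows held a CArG box, the element bound by SRF, a transcription factor of many actin genes. RefSeq entries on GRCh38.p14 matched 8 of the 10 genes, with 11 start sites in all, and each window covers the 250 bases before a start. The ACTG1 window is cut to its first 178 bases. These still hold 20 bases annotated as untranslated exon, and the cut leaves out further exon sequence of an alternative ACTG1 transcript. Capitals mark matches on either strand to a CArG box, GATAA (the core recognised by GATA factors), CCAAT or TATAAA.
PLS3, chrX:115560924-115561173, + strand: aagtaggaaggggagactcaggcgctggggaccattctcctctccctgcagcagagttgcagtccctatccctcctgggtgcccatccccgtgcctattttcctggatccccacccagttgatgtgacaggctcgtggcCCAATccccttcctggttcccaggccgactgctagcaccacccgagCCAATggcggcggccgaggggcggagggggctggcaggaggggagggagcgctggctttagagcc
RHOB, chr2:20446824-20447073, + strand: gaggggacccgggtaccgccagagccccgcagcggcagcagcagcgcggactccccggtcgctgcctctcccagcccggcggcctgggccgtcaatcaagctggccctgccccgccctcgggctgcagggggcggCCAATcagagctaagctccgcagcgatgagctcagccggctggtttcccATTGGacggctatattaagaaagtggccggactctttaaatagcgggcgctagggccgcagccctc
TMSB4X, chrX:12974860-12975109, + strand: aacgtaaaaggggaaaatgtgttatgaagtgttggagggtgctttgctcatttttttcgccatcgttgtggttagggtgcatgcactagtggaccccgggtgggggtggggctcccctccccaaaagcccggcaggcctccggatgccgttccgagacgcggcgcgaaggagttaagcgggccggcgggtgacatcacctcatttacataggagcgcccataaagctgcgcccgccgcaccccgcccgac
ACTG1, chr17:81512872-81513049, - strand: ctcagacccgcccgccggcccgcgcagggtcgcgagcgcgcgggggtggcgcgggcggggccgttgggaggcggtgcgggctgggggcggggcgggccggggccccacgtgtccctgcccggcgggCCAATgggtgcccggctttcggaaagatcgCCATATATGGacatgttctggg
CAPN2, chr1:223701347-223701596, + strand: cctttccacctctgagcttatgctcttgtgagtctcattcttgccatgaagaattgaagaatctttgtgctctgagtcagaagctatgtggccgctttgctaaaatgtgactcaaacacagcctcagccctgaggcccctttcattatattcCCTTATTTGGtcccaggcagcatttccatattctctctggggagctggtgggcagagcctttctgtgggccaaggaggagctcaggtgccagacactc
PLS3 and RHOB each held 2 CCAAT matches, which on one strand read CCAAT and on the other ATTGG. A CArG box began 94 bases before the ACTG1 start and 98 bases before the upstream of the pair of CAPN2 starts. Among 35116 RefSeq promoter windows of 250 bases, 1.16% held a CArG box, 32% CCAAT, 20.4% GATAA and 10.7% TATAAA. TMSB4X held none of the 4 motifs in its window. GENCODE 29 on GRCh38 places PLS3 at chrX:115561174-115650861, RHOB at chr2:20447074-20449445, TMSB4X at chrX:12975108-12977227, ACTG1 at chr17:81509971-81523847 and CAPN2 at chr1:223701593-223776018, all as protein-coding genes. Which start each library used was not measured here, and a match to these letters is not a bound site.

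PLS3, or T-plastin, bundles actin filaments and is the plastin of non-blood tissues, whereas LCP1, or L-plastin, is that of white cells. PLS3 was measured at 12.0, 15.4 and 13.1 scaled TPM in undifferentiated WT libraries, at 9.03, 8.69 and 8.77 at 48 h and at 19.5, 16.3 and 17.0 at 5 d. HBBko libraries held 0.653, 0.617 and 0.687 scaled TPM undifferentiated, 0.599, 1.03 and 0.652 at 48 h, and 0.648, 0.552 and 0.556 at 5 d. No HBBko library came near any WT library, In bulk RNA, fewer cells with a transcript and less of it per cell cannot be told apart, for this gene and those below. The mean level was 20.7-fold lower in HBBko cells before differentiation, 11.6-fold lower at 48 h and 30.1-fold lower at 5 d. On the log2(scaled TPM + 1) scale used for all fitted differences, which understates the change of a low gene, these were differences of -3.13, -2.49 and -3.55, each ± 0.098 (SE of the fit over 18 libraries). The authors' deposited tables give log2 fold changes of -4.36, -3.59 and -4.90. WT groups were separate between stages while HBBko groups overlapped: the step from 48 h to 5 d was 0.92 ± 0.098 in WT cells and -0.14 ± 0.098 in HBBko cells. After rescaling to equal sums these steps were 0.31 and -0.32. With a pseudocount of 5 the differences between lines were -1.71, -1.26 and -2.01.

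Among the other plastins, LCP1 was at 146 ± 21.5 scaled TPM (SD, n = 3) in undifferentiated WT cells and 154 ± 4.32 in HBBko cells, then fell in both lines to 10.6 ± 0.605 and 18.7 ± 0.405 at 48 h and 1.93 ± 0.179 and 3.96 ± 0.563 at 5 d. LCP1 was higher in HBBko cells at 48 h (log2 difference 0.77 ± 0.094, limma adjusted p = 3.2e-05) and at 5 d (0.75 ± 0.094, adjusted p = 5.1e-06). PLS1, the plastin of intestinal brush borders, stayed between 1.37 and 6.21 scaled TPM in all libraries. In WT cells the leading plastin thus passed from LCP1 before differentiation to PLS3 at 5 d, while in HBBko cells LCP1 remained above PLS1 and PLS3 at each stage by mean level. The genes whose pattern over the 18 libraries was most like that of PLS3 were SATB1 (Pearson r = 0.973), SLFN13 (0.967) and RBMS1 (0.960). These likenesses, and those given for the genes below, compare libraries that share their line and stage, and are descriptions.

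CNN3, or acidic calponin, binds along actin filaments in non-muscle cells. It ran opposite to PLS3 between the lines. WT libraries held 1.22, 1.14 and 1.54 scaled TPM undifferentiated, 2.69, 2.67 and 3.12 at 48 h and 8.22, 7.34 and 7.78 at 5 d. HBBko libraries held 6.72, 7.22 and 6.67, then 13.6, 13.7 and 13.9, then 26.7, 24.4 and 26.0. CNN3 rose at each step in both lines, and all 6 groups were separate from their neighbours in level. HBBko cells before differentiation, at 6.87 on average, stood just below WT cells at 5 d, at 7.78. The ratio of HBBko to WT means was 5.29 undifferentiated, 4.86 at 48 h and 3.30 at 5 d, and the log2 differences were 1.78, 1.95 and 1.60, each ± 0.075. The genotype difference at 5 d was smaller than that at 48 h by 0.34 ± 0.106 on the scale with pseudocount 1, whereas with a pseudocount of 5 the sign turned (0.0044), so its direction depends on that choice. The ratio of CNN3 to PLS3 within a library was 0.0735 to 0.457 in WT cells and 9.71 to 46.8 in HBBko cells.

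CNN2, a calponin of non-muscle cells, was called lower at both steps in both lines. It went from 113 ± 6.65 scaled TPM (SD, n = 3) in WT and 112 ± 2.40 in HBBko cells before differentiation to 38.1 ± 1.72 and 38.6 ± 1.15 at 48 h and 9.10 ± 0.340 and 10.1 ± 0.107 at 5 d. At 5 d CNN3 in HBBko cells was therefore above CNN2, while in WT cells it was below. CNN1, the smooth muscle calponin, was higher in undifferentiated HBBko cells (7.79 ± 0.704 against 3.21 ± 0.421 scaled TPM, log2 difference 1.06 ± 0.141, limma adjusted p = 2.2e-05) and at 48 h (0.89 ± 0.141, adjusted p = 0.00038), and was at most 1.23 scaled TPM in both lines at 5 d. Nearest to CNN3 in pattern were the beta-globin pseudogene HBBP1 (r = 0.973), the cell cycle phosphatase gene CDC25A (0.922) and the kinetochore gene ZWINT (0.920).

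**Figure D2:**
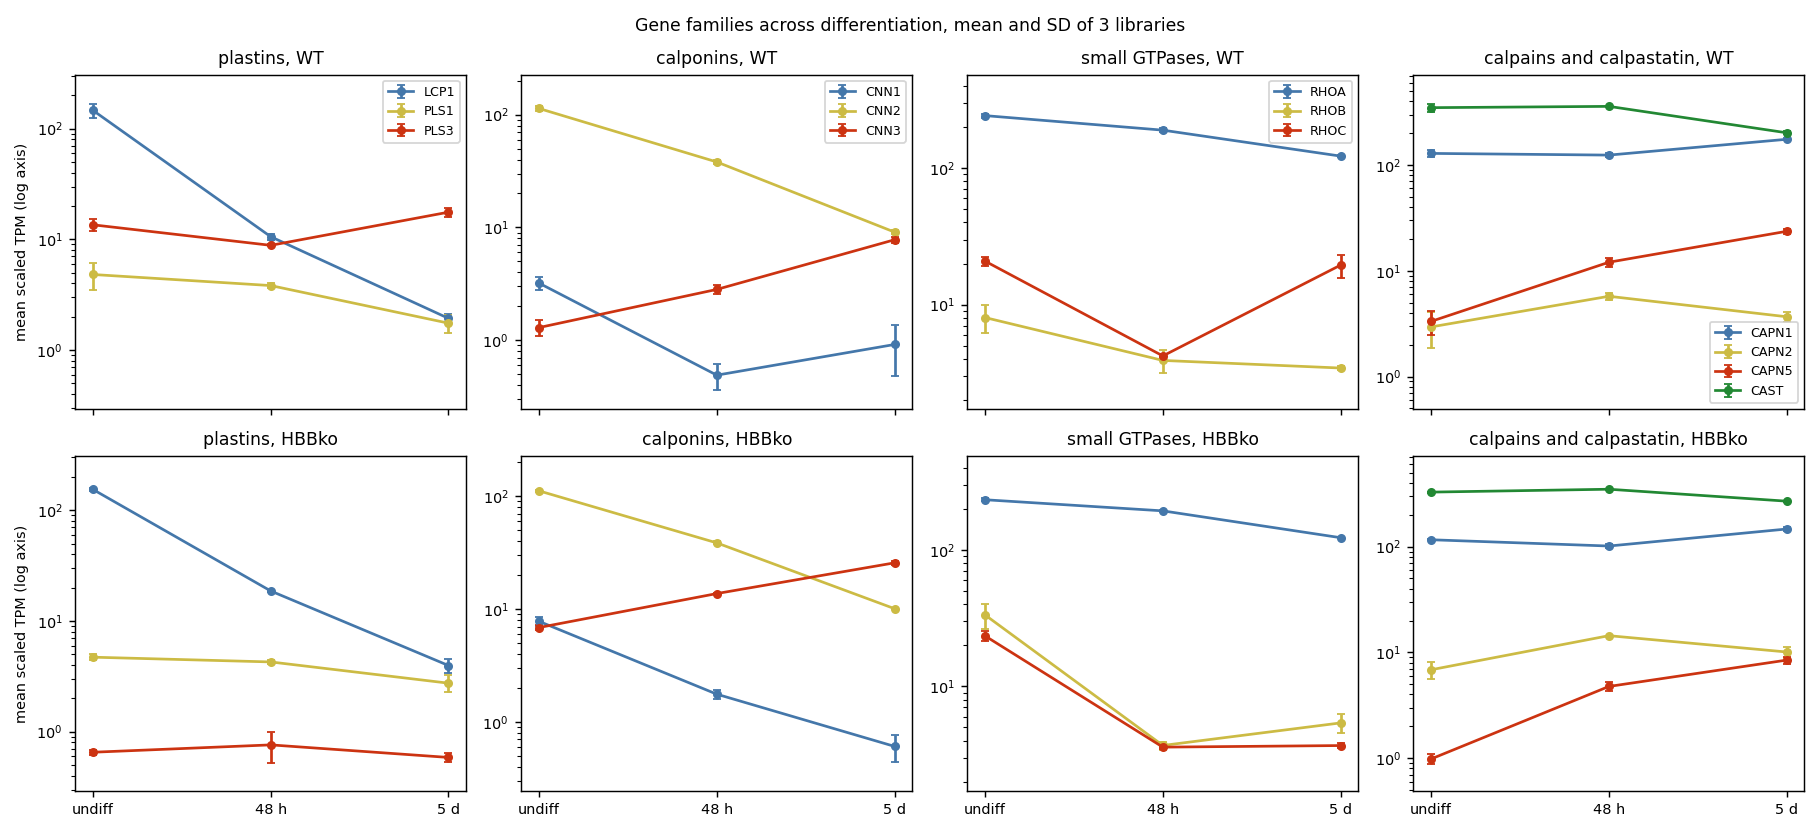
Mean scaled TPM (log axis) with SD of 3 libraries across the 3 stages for plastins, calponins, small GTPases and calpains with their inhibitor calpastatin (CAST), WT above and HBBko below on the same axis for each family. In mean level PLS3 passes LCP1 by 5 d in WT cells, CNN3 passes CNN2 by 5 d in HBBko cells, and RHOC is at 19.5 in WT cells and 3.68 in HBBko cells at 5 d.

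The beta-thymosins TMSB4X and TMSB10 encode closely related small peptides that bind actin monomers, and they followed different courses. TMSB4X was at 576, 524 and 662 scaled TPM in undifferentiated WT libraries, 21.5, 18.7 and 27.9 at 48 h and 314, 236 and 320 at 5 d. In HBBko cells it was at 602, 514 and 580, then 12.3, 11.5 and 12.6, then 56.2, 51.1 and 45.9. The lines overlapped before differentiation, both lost nearly all of the transcript by 48 h, and both regained part of it by 5 d, HBBko cells less than WT cells. The fall over the first 48 h was 25.8-fold in WT and 46.6-fold in HBBko cells, and the rise to 5 d was 12.8-fold and 4.20-fold. The log2 difference of HBBko from WT cells went from -0.05 to -0.83 to -2.47, each ± 0.132, and at 5 d the mean level was 5.68-fold lower. Its direction before differentiation turned without WT replicate 3 (0.04) and also without HBBko replicate 2 (0.015).

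TMSB10 only fell. WT libraries held 650, 610 and 644 scaled TPM undifferentiated, 202, 204 and 166 at 48 h and 11.2, 13.7 and 11.8 at 5 d. HBBko libraries held 549.8, 556 and 561, then 145, 135 and 144, then 9.08, 6.52 and 7.11. At each stage every HBBko library lay below every WT library, and all 6 groups were separate in level. The log2 differences of HBBko from WT cells were -0.19, -0.42 and -0.63, each ± 0.095, with means 1.14-, 1.35- and 1.61-fold lower. After rescaling to equal sums they were -0.15, -0.28 and -0.32.

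As a result the thymosin composition turned over between stages. The ratio of TMSB4X to TMSB10 within a library was 0.858 to 1.03 in undifferentiated WT cells and 0.924 to 1.10 in HBBko cells. It dropped to 0.0917 to 0.169 in WT and 0.0845 to 0.0877 in HBBko cells at 48 h. By 5 d it had reached 17.3 to 28.0 in WT cells and 6.18 to 7.83 in HBBko cells, with no overlap between the lines. A ratio within a library does not depend on any factor by which libraries were scaled. Summed over both genes, a 48 h library was mostly TMSB10 and a 5 d library mostly TMSB4X, in either line. TMSB15A and TMSB15B, a further pair of thymosin genes, were at most 0.255 scaled TPM in every library. TMSB4X shared 16% of its 31-base transcript words with other genes and TMSB10 6.22%, largely their own processed copies, and the summed signal listed for TMSB4X copies was at most 4.63% of the gene. Nearest in pattern to TMSB4X were MAPKAPK2 (r = 0.988), the clock gene PER1 (0.987) and GNL1 (0.986). Nearest to TMSB10 was MYB (0.998), the progenitor transcription factor, followed by RRBP1 (0.997) and KHK (0.997).

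**Figure D3:**
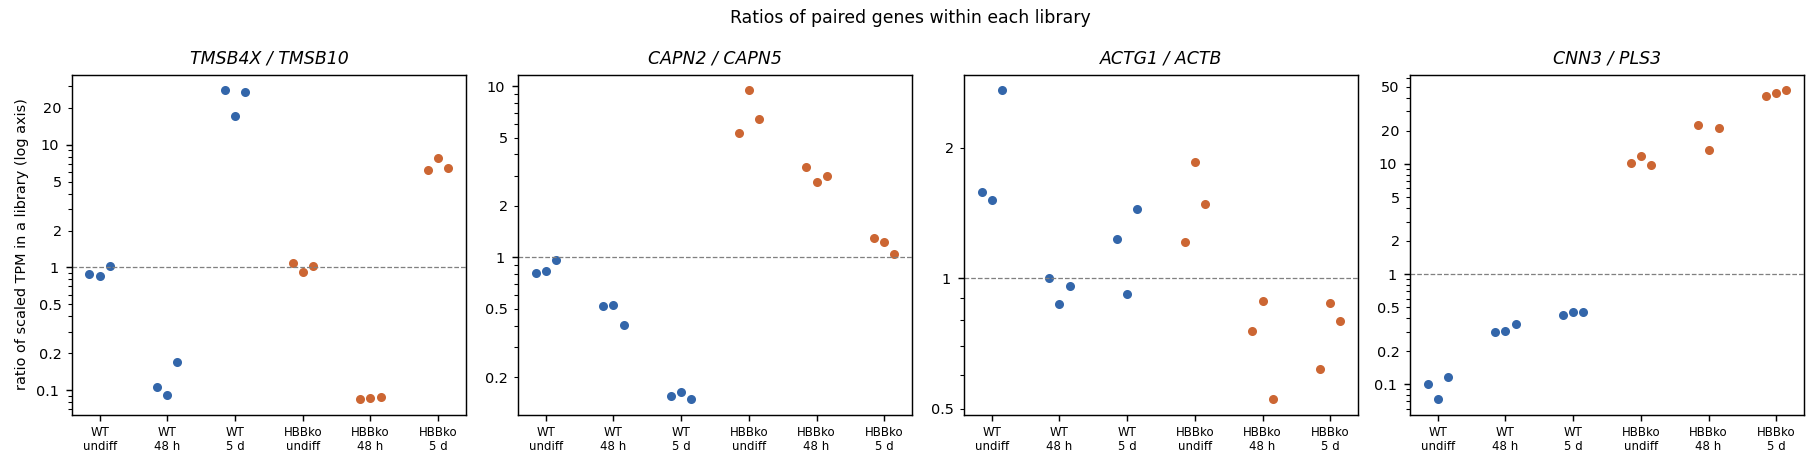
Ratio of scaled TPM of paired genes in each library (log axis, dashed line at equal levels), WT in blue and HBBko in orange. TMSB4X and TMSB10 are near equal before differentiation, TMSB10 leads at 48 h and TMSB4X at 5 d. By scaled TPM CAPN2 is above CAPN5 in all 9 HBBko libraries and below it in all 9 WT libraries, an order that is less sure for CAPN5.

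VIM, which encodes vimentin, the intermediate filament protein of progenitors, had the highest scaled TPM of the 10 genes before differentiation and the widest range. WT libraries went from 1573, 1265 and 1058 scaled TPM to 37.0, 36.6 and 29.6 at 48 h and 5.71, 6.36 and 9.23 at 5 d. HBBko libraries went from 1284, 1161 and 1233 to 30.0, 28.5 and 30.4 and then to 3.84, 3.84 and 4.68. The lines overlapped undifferentiated and at 48 h and were separate at 5 d, when HBBko cells were 1.72-fold lower (log2 difference -0.64 ± 0.142, or -0.34 after rescaling to equal sums and -0.40 with a pseudocount of 5). Over the first 48 h the mean fell 37.7-fold in WT and 41.4-fold in HBBko cells, and the highest group mean was 315-fold above the lowest. The closest patterns were those of ACOT2 (r = 0.998), ARHGDIB (0.998), and GM2A (0.997). Among other intermediate filament genes KRT19 also fell, from 39.0 ± 3.40 scaled TPM (SD, n = 3) in WT cells to 0.624 ± 0.292 at 5 d, and in HBBko cells from 30.8 ± 1.95 to 1.64 ± 0.277. KRT19 had a log2 difference of -0.33 in undifferentiated HBBko cells (limma adjusted p = 0.037). That call was lost after rescaling to equal sums (0.052) or by median-of-ratios (0.056), and without WT replicate 1 (0.096) or 3 (0.10) or HBBko replicate 1 (0.097) or 2 (0.11). It was also lost with a pseudocount of 0.5 (0.083), without the filter (0.087) and with library weights (0.064). KRT19 was higher in HBBko cells at 48 h (0.76 ± 0.121, adjusted p = 0.00041) and 5 d (0.71 ± 0.121, adjusted p = 0.00012).

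The calpains CAPN2 and CAPN5 moved in opposite directions between the lines. CAPN2 encodes the catalytic subunit of m-calpain, a calcium-dependent protease that works with the small subunit CAPNS1. WT libraries held 2.24, 2.40 and 4.20 scaled TPM of CAPN2 undifferentiated, 6.16, 5.76 and 5.30 at 48 h and 3.55, 4.08 and 3.39 at 5 d. HBBko libraries held 5.69, 8.26 and 6.62, then 14.4, 14.4 and 14.4, then 10.2, 11.2 and 8.86. In both lines CAPN2 peaked at 48 h, and every HBBko library was above every WT library of its stage. Means were 2.33-, 2.51- and 2.75-fold higher in HBBko cells, with log2 differences of 1.01, 1.19 and 1.24, each ± 0.148. The high undifferentiated WT value came from the library that stood apart, and without it the first difference was 1.23.

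CAPN5 belongs to the calpains that lack the calcium-binding domain of the classical enzymes. It rose at each stage in both lines and was lower in HBBko cells throughout. WT libraries held 2.76, 2.88 and 4.34 scaled TPM undifferentiated, 11.9, 11.0 and 13.2 at 48 h and 22.9, 25.1 and 22.8 at 5 d. HBBko libraries held 1.06, 0.867 and 1.02, then 4.27, 5.25 and 4.78, then 7.83, 9.06 and 8.48. Every HBBko library lay below every WT library of its stage. HBBko means were 3.38-, 2.53- and 2.79-fold lower, with log2 differences of -1.11, -1.18 and -1.38, each ± 0.114. Whether the difference widened or narrowed between stages changed with the scaling between libraries: from 48 h to 5 d it moved by -0.20 as deposited and by 0.02 after rescaling to equal sums. Within a library CAPN2 to CAPN5 ran from 0.149 to 0.969 in WT and from 1.04 to 9.53 in HBBko cells. By scaled TPM CAPN5 was thus the higher of the pair in all WT and CAPN2 in all HBBko libraries. That order is less sure than the difference between the lines. The authors' mean observed abundance exceeded the mean log2 scaled TPM by 7.55 for CAPN5 and 5.46 for CAPN2 undifferentiated, and by 7.56 and 5.40 at 5 d. The pattern of CAPN5 was closest to that of HBB itself (r = 0.995), which rises with stage and is lower in HBBko cells, then GLIPR2 (0.992) and NT5M (0.976). CAPN2 was closest to the embryonic globin gene HBZ (0.922), HLX (0.907) and P2RY1 (0.901).

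The abundant calpain system genes changed less. CAPN1, the catalytic subunit of the calpain of mature red cells, was at 97.6 to 178 scaled TPM in every library and slightly lower in HBBko cells at 48 h (log2 difference -0.29, limma adjusted p = 0.0011) and 5 d (-0.25, 7e-04), although after rescaling to equal library sums the 5 d difference had the other sign (0.08, adjusted p = 0.14). Its undifferentiated difference of -0.14 (adjusted p = 0.035) lost its call under both other scalings (0.090 and 0.082) and without WT replicate 1 (0.11) or 3 (0.11) or any 1 HBBko replicate (0.057 to 0.099). The call was also lost without the filter (0.056) and where only the groups compared were fitted (0.16). CAPNS1 was lower at 48 h (420 ± 6.21 against 478 ± 7.74 scaled TPM, SD, n = 3, limma adjusted p = 0.013; 0.39 after rescaling to equal sums and 0.054 without HBBko replicate 3) and at 5 d (267 ± 2.56 against 403 ± 14.9, log2 difference -0.59, limma adjusted p = 4.1e-08, and -0.26 after rescaling). CAST, the calpain inhibitor calpastatin, was higher in HBBko cells at 5 d, at 269 ± 3.20 against 202 ± 5.80 scaled TPM (log2 difference 0.41, limma adjusted p = 2e-06, and 0.75 after rescaling). At 5 d the inhibitor was thus higher and the shared subunit lower in HBBko cells. CAPN3, CAPN6 and CAPN12, the calpains of muscle, placenta and hair follicle, were under 1 scaled TPM in every library.

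RHOB is a small GTPase of endosomes, made and broken down quickly. It was at 10.2, 6.91 and 7.01 scaled TPM in undifferentiated WT libraries and at 41.1, 27.2 and 31.6 in HBBko libraries, 4.14-fold higher by mean. At 48 h WT libraries held 3.54, 3.43 and 4.73 and HBBko libraries 3.92, 3.43 and 3.70, which overlapped. At 5 d the values were 3.29, 3.48 and 3.52 in WT and 5.75, 4.41 and 6.01 in HBBko libraries, which did not overlap. RHOB thus fell 9.03-fold over the first 48 h in HBBko cells and 2.06-fold in WT cells, to a like level. The log2 difference was 1.92, -0.06 and 0.52, each ± 0.152, and the sign at 48 h turned after rescaling to equal sums (0.06). Nearest in pattern were PNMA3 (r = 0.978), NAT8L (0.971) and PARD6G (0.968).

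RHOA and RHOC, its closest relatives, were not called before differentiation. RHOA was at 243 ± 7.88 scaled TPM (SD, n = 3) in WT and 233 ± 5.54 in HBBko cells before differentiation, 190 ± 6.29 and 193 ± 2.22 at 48 h and 123 ± 2.75 and 123 ± 1.51 at 5 d. After rescaling to equal sums RHOA was called higher in HBBko cells at 48 h (0.16, limma adjusted p = 0.014) and 5 d (0.34, 9.4e-06). It was called at neither stage as deposited or under median-of-ratios scaling. RHOC was lower at 48 h in both lines, and at 5 d stood at 19.5 ± 3.78 scaled TPM in WT against 3.68 ± 0.136 in HBBko cells (log2 difference -2.11 ± 0.099, limma adjusted p = 1.1e-10). The change in that difference between 48 h and 5 d was -1.93 ± 0.140 (adjusted p = 2.4e-07).

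ACTB and ACTG1 encode the cytoplasmic beta and gamma actins, whose proteins are nearly identical. Pooled over the 6 groups, their spread between libraries was wider than that of the other 8 genes, with the widest spread in undifferentiated cells. ACTG1 was at 234, 59.6 and 133 scaled TPM in undifferentiated WT libraries and 232, 165 and 305 in HBBko libraries, which overlapped. At 48 h it was at 79.0, 72.3 and 95.8 in WT and 49.4, 45.1 and 34.1 in HBBko libraries, and at 5 d at 89.0, 97.6 and 143 and at 51.5, 68.4 and 53.8. HBBko libraries were thus all below WT libraries once differentiation had begun, by 1.92-fold and 1.90-fold in the mean. ACTB was at 148, 39.4 and 49.1 scaled TPM in undifferentiated WT and 192, 89.3 and 206 in HBBko libraries. It was at 78.7, 82.7 and 99.7 in WT and 65.5, 50.9 and 64.7 in HBBko libraries at 48 h, and at 72.3, 106 and 99.3 and 83.2, 78.0 and 67.6 at 5 d. The lines overlapped before differentiation and at 5 d, and not at 48 h. The log2 differences were 0.88, -0.93 and -0.89 for ACTG1, each ± 0.342, and 1.19, -0.52 and -0.26 for ACTB, each ± 0.364. Single libraries moved them: the first ACTG1 difference was 0.36 without WT replicate 2 and 1.34 without WT replicate 1, and the last ACTB difference was -0.16 without WT replicate 2 and -0.43 without WT replicate 1. Rescaling to equal sums took ACTG1 at 5 d to -0.56, and library weights took the undifferentiated differences to 0.45 for ACTG1 and 0.63 for ACTB. Changes from 48 h to 5 d had no fixed direction for either actin in either line, since they were positive as deposited and negative after rescaling to equal sums, and the ACTB difference between lines at 5 d turned too (0.07).

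For the actins the deposited tables differ from each other. The SD within groups, on the log2(scaled TPM + 1) scale, was 0.523 for ACTB and 0.493 for ACTG1, at the 99.2nd and 99.1st percentile of the tested genes, whose median was 0.106. Deviations of the 2 actins from their group means went together across libraries (r = 0.798). The authors' deposited table for undifferentiated cells gives log2 fold changes of 0.53 ± 0.124 (SE) for ACTB and 0.49 ± 0.186 for ACTG1, where the scaled TPM of the same libraries give log2 ratios of 1.21 and 0.88. At 48 h the deposited table gives -0.05 ± 0.032 and -0.42 ± 0.061 and the scaled TPM -0.53 and -0.95, and at 5 d the deposited table gives -0.11 ± 0.042 and -0.61 ± 0.111 and the scaled TPM -0.26 and -0.90. For 98.4% to 99.0% of the genes above 0 in all 6 libraries, the 2 sources lay within 0.1 of each other, with a median gap of 0.0065 to 0.013. ACTB and ACTG1 were above the 99th percentile of gap size at each of the 3 stages, CAPN5 was at the 97.6th to 99.3rd (gap 0.07 to 0.14), and the other 7 genes had gaps of at most 0.023. The mean observed abundance that the authors' table for undifferentiated cells lists on a log2 scale, in a unit that is not stated, exceeded the mean log2 scaled TPM by 9.0 for ACTB and 7.90 for ACTG1, against a median of 5.36 over genes. The signs of the actin differences were the same in both sources at each stage, and their sizes were not. The actins also share sequence with other genes. Of the 31-base words in their transcripts, 19.2% for ACTB and 13.9% for ACTG1 occur elsewhere in GENCODE 29. Rows for ACTG1 copies summed to at most 10.1% of ACTG1, and those for ACTB copies to at most 0.354% of ACTB. The part of shared sequence in the gap was not tested.

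**Figure D4:**
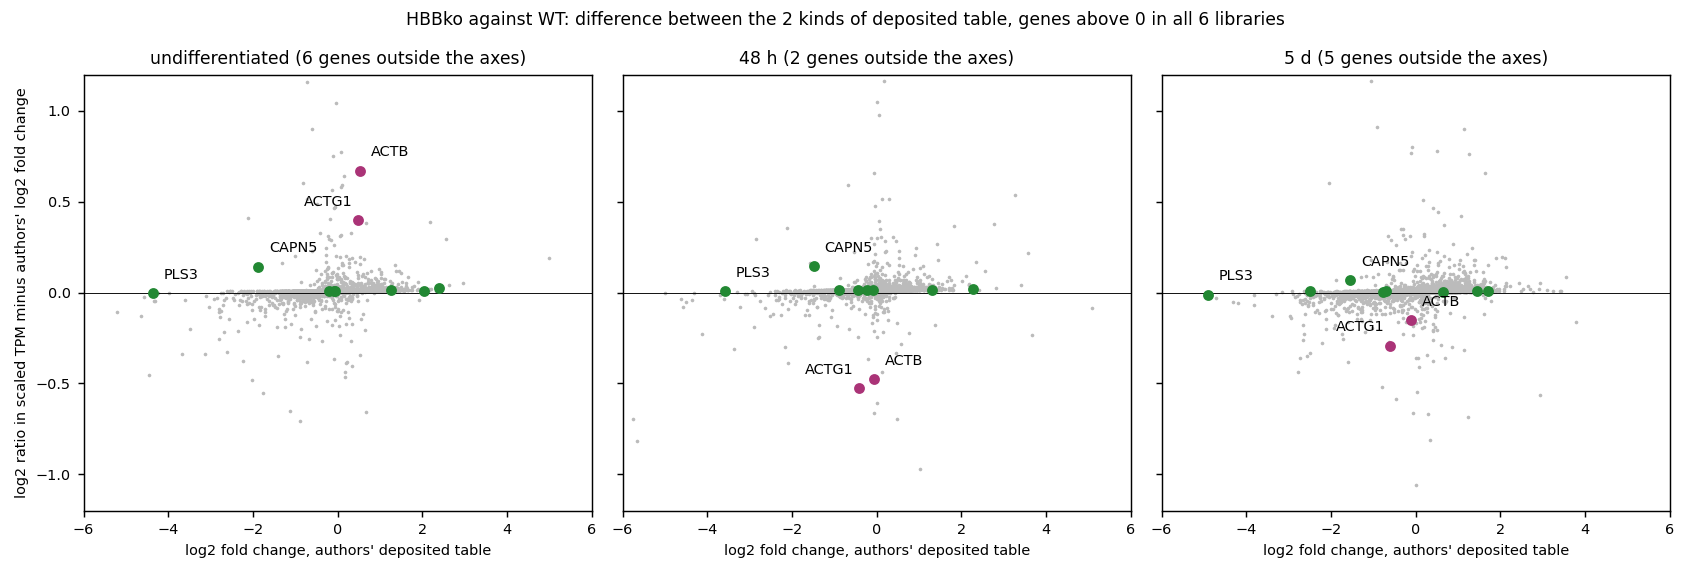
For each gene above 0 in all 6 libraries of a stage, the log2 ratio of HBBko to WT in scaled TPM minus the log2 fold change of the authors' deposited table (vertical axis), against that fold change. Grey points are all such genes, green points members and magenta points ACTB and ACTG1, which sit off the line at 0 by 0.15 to 0.67 in size.

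ACTB stood nearest to ACTG1 in pattern (r = 0.765), then ELL (0.752) and TOLLIP (0.742), and these are the lowest such values of the 10 genes. ACTG1 stood nearest to FBXW5 (0.910), TIGD5 (0.891) and TOLLIP (0.882). The muscle actins ACTA1, ACTA2, ACTC1 and ACTG2 were at most 0.348 scaled TPM in every library.

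Across differentiation, 3 of the 10 genes were called higher and 5 lower in WT cells over the first 48 h, where 64.9% of tested genes were called, 23.5% upwards and 41.4% downwards. In HBBko cells 3 were higher and 6 lower, beside 65.2% of tested genes, 25.1% higher and 40.1% lower. From 48 h to 5 d, 4 were called higher and 3 lower in each line. Beside them 80.2% of tested genes were called in WT cells, 30.8% higher and 49.5% lower, and 79.7% in HBBko cells, 30.2% higher and 49.5% lower. Groups of consecutive stages did not overlap for 8 of the 10 in WT cells (63.3% of tested genes) and 9 in HBBko cells (76.1%) over the first 48 h, and for 7 in WT cells (84.4%) and 9 in HBBko cells (84.4%) from 48 h to 5 d. CNN3, CAPN2 and CAPN5 were those higher at 48 h in both lines. These counts too are descriptions, since the genes were chosen by their levels across the groups.

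The same questions were put to 150 other cytoskeletal genes in 10 lists by role, of which 125 passed the filter. These genes were tested, with p-values adjusted over all 12005 genes. The lists too were chosen with earlier results of these data known, which limits what their counts can show. In undifferentiated cells 33 of the 125 were higher and 21 lower in HBBko cells (43.2%, against 43.3% of all tested genes), with a median log2 difference of 0.01 against -0.01 for all genes. At 48 h 11 were higher and 19 lower (24%, against 18.7%), with a median of -0.03 against 0.02. At 5 d 24 were higher and 46 lower (56%, against 51.3%), with a median of -0.09 against 0.02. The share of the list that differed was thus near that of all genes at each stage. Median-of-ratios scaling kept the direction of the split, with 22 higher and 49 lower at 5 d and 10 and 19 at 48 h. After rescaling to equal sums the 5 d split was 58 higher and 16 lower and the 48 h split 31 and 6. The median of all tested genes then moved to 0.27 at 5 d and 0.14 at 48 h. That of the list was 0.18 and 0.098, below that of all genes, as it was with the deposited values and with median-of-ratios scaling.

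By role, before differentiation HBBko cells had 6 of 14 tested genes of actin monomer binding higher and 2 lower, and 6 of 13 tubulin and stathmin genes higher and 1 lower, the same counts as under both other scalings. Of all tested genes 20.9% were higher and 22.3% lower. In the other roles the counts were 8 higher and 7 lower of 25 for filament nucleation, 4 and 2 of 10 for bundling and crosslinking, and 4 and 2 of 20 for capping, severing and side binding. They were 0 and 2 of 7 for non-muscle myosin, 1 and 1 of 7 for intermediate filaments and lamins, 1 and 1 of 6 for calpains, 2 and 3 of 18 for small GTPases with their effectors, and 1 and 0 of 5 for SRF and its cofactors. Among those higher were PFN1, which encodes profilin, at 1058 ± 42.8 against 816 ± 145 scaled TPM (SD, n = 3, log2 difference 0.39, limma adjusted p = 0.0023), and CFL1, which encodes the severing protein cofilin, at 760 ± 9.08 against 642 ± 35.9 (0.24, adjusted p = 0.00046). The 4 genes of the list with the largest called differences upwards were CNN1, MARCKSL1, CYFIP1 and TUBB2A (log2 differences 1.06, 0.94, 0.77 and 0.69, limma adjusted p at most 2.2e-05). MARCKSL1 crosslinks filaments at the membrane, and CYFIP1 is a subunit of the WAVE complex that turns on filament branching. Those downwards were TWF2, TMOD1, RHOU and CORO1A (-0.79, -0.72, -0.71 and -0.64, adjusted p at most 8.4e-05). TMOD1, which caps the short actin filaments of the red cell skeleton, was at 14.9 ± 0.790 scaled TPM in HBBko and 25.3 ± 3.70 in WT cells.

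At 48 h the largest called differences upwards were those of CNN1, CYFIP1, LCP1 and KRT19 (0.89, 0.79, 0.77 and 0.76, adjusted p at most 0.00041). Those downwards were FSCN1, a filament bundler, at -0.59 (adjusted p = 0.0011), TUBA1A at -0.56 (0.033), the severing protein GSN at -0.42 (0.012) and the membrane linker EZR at -0.36 (0.0095). TUBA1A lost its call without the filter (adjusted p = 0.11) and without any 1 of the 6 libraries compared, GSN without WT replicate 3 (0.052) or HBBko replicate 3 (0.057), and EZR after rescaling to equal sums (0.075).

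At 5 d the largest differences were downwards, in RHOC, VCL, FSCN1 and TPM4 (-2.11, -1.73, -1.51 and -1.26, adjusted p at most 1.1e-07). VCL, which encodes vinculin, the link between filaments and adhesions, was at 3.25 ± 0.179 scaled TPM in HBBko libraries on average against 13.2 ± 1.33 in WT libraries (SD, n = 3). FSCN1 was at 3.70 ± 0.873 against 12.2 ± 0.818 and TPM4, a tropomyosin of non-muscle cells, at 3.71 ± 0.256 against 10.4 ± 2.10. Those upwards were LCP1, KRT19, RHOF and RAC2 (0.75, 0.71, 0.69 and 0.62, adjusted p at most 0.00012), among which RAC2 is the Rac of blood cells. Beside 26.5% of all tested genes higher and 24.8% lower at 5 d, 5 of 10 bundling and crosslinking genes were higher and 4 lower, 3 and 8 of 20 for capping, severing and side binding, 1 and 6 of 14 for actin monomer binding, and 4 and 7 of 25 for filament nucleation. The counts were 3 and 7 of 18 for small GTPases with their effectors, 3 and 5 of 13 for tubulins and stathmin, 1 and 4 of 7 for non-muscle myosin, 1 and 2 of 7 for intermediate filaments and lamins, 2 and 2 of 6 for calpains, and 1 and 1 of 5 for SRF and its cofactors. After rescaling to equal sums each of the 10 roles had more genes higher than lower, for example 8 and 3 for capping, severing and side binding and 6 and 2 for actin monomer binding. Under that scaling 86.0% of all 7576 called genes were higher at 5 d, against 78.4% of the called genes of the list. The excess upwards was thus not particular to these roles. SRF itself was not called at any stage as deposited, although it was called higher in undifferentiated HBBko cells (0.18, limma adjusted p = 0.021) and at 5 d (0.42, 9.4e-06) after rescaling to equal sums. It stood at 24.3 ± 1.01 against 22.0 ± 1.86 scaled TPM undifferentiated and 19.2 ± 0.522 against 17.7 ± 0.452 at 5 d in HBBko and WT cells. Its cofactor MRTFA was higher in undifferentiated HBBko cells (0.29 ± 0.093, limma adjusted p = 0.018), a call lost without WT replicate 2 (0.078) or HBBko replicate 2 (0.062) and with library weights (0.19).

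**Figure D5:**
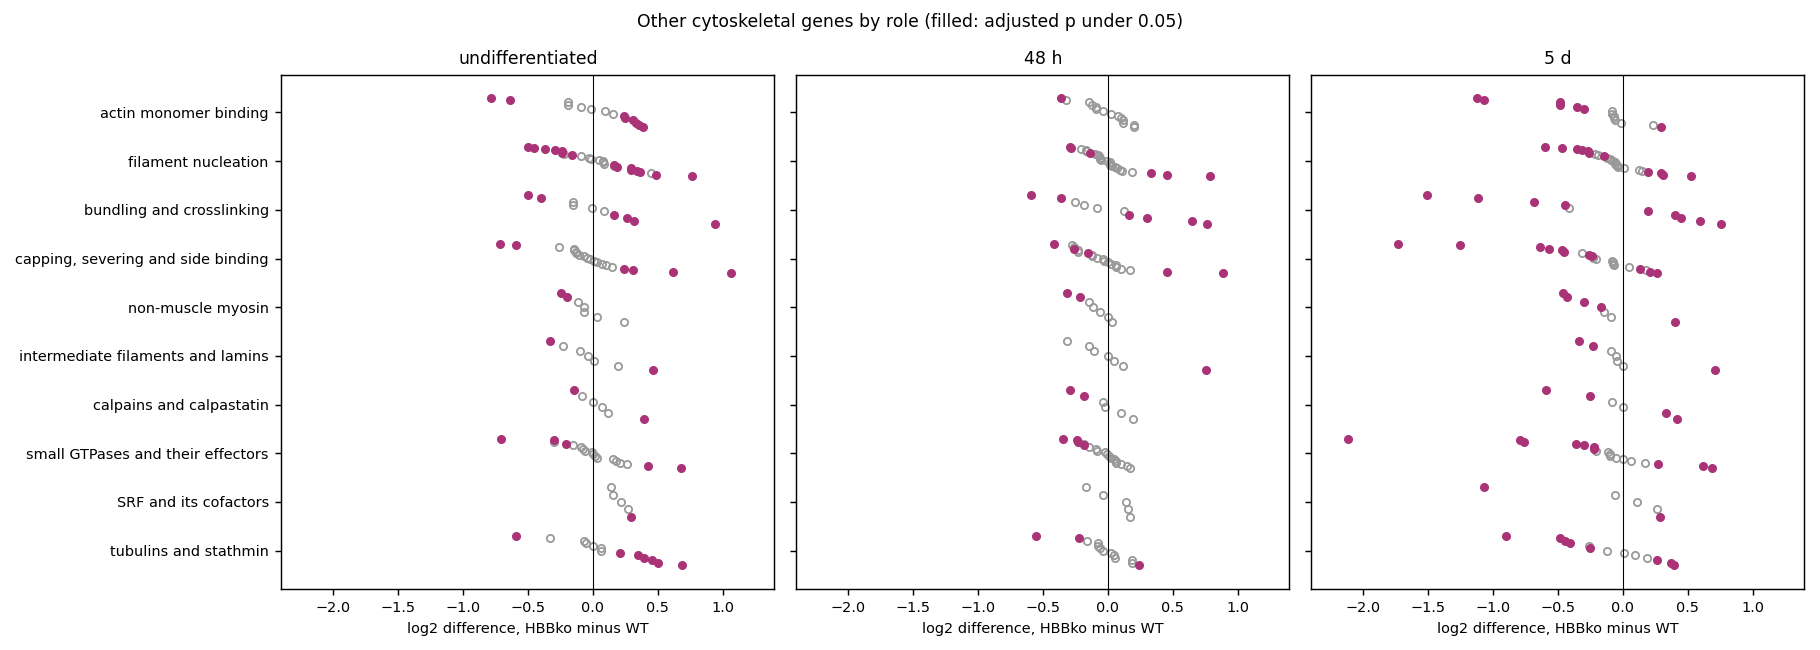
Log2 difference of HBBko from WT cells for the 125 tested other cytoskeletal genes, by role, at the 3 stages; each point is a gene and filled points have an adjusted p under 0.05. At 5 d RHOC lies at -2.11 and VCL at -1.73, beyond every difference at the earlier stages.

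Differentiation moved more of this list than the genotype did. Over the first 48 h 28 were higher and 69 lower in WT cells (77.6%, against 64.9% of all genes) and 22 higher and 72 lower in HBBko cells (75.2%, against 65.2%). From 48 h to 5 d, 40 were higher and 57 lower in WT cells (77.6%, against 80.2%), and 36 higher and 68 lower in HBBko cells (83.2%, against 79.7%). Median-of-ratios scaling moved these splits to 40 and 58, 32 and 66, 56 and 43, and 48 and 55 in the same order, and rescaling to equal sums to 18 and 84, 20 and 80, 10 and 101, and 11 and 94. The median of all genes over these steps went from -0.10, -0.09, -0.20 and -0.20 as deposited to between 0 and 0.02 under the former and -0.28, -0.18, -0.70 and -0.57 under the latter. The largest falls over the first 48 h in WT cells were in CAPG, a capping protein of macrophages (-5.36 ± 0.147), the formin FMNL1 (-3.98), LCP1 (-3.66) and ARHGDIB (-3.62), and the largest rises in TUBB2A (1.75), the tropomyosin TPM1 (1.65), DAAM1 (1.34) and ARPC1A (1.15). In HBBko cells CAPG (-5.04), ARHGDIB (-3.79), TPM4 (-3.67) and FMNL1 (-3.64) fell most, and TPM1 (1.96), DAAM1 (1.73), TMOD1 (1.19) and TUBB1 (1.13) rose most. From 48 h to 5 d TUBB1, the tubulin of platelets, rose by 2.20 in WT and 2.73 in HBBko cells. RHOC (1.96), TUBB2A (1.60) and TUBA4A (1.41) followed in WT cells, and TAGLN (1.65), TMOD1 (1.35) and CALD1 (1.34) in HBBko cells. The largest falls were in MSN (-3.03), FSCN1 (-2.32), NCKAP1L (-2.30) and LIMK1 (-2.16) in WT cells and FSCN1 (-3.23), MSN (-2.93), LIMK1 (-2.60) and TAGLN2 (-2.23) in HBBko cells, all with limma adjusted p at most 9.8e-07 in both steps.

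The genotype difference itself changed between undifferentiated cells and 48 h for 6 of the 125 genes upwards and 16 downwards (17.6%, against 13.2% of all genes), and between 48 h and 5 d for 11 upwards and 32 downwards (34.4%, against 24.6%). After rescaling to equal sums these splits were 11 upwards with 7 downwards and 24 with 17. Of the 10 genes chosen at the outset, 1 was called upwards and 4 downwards in the first of these changes (7.67% and 5.51% of all tested genes) and 3 downwards in the second (13.1%). The first was -1.98 ± 0.215 for RHOB, -1.81 ± 0.484 for ACTG1, -1.71 ± 0.514 for ACTB, -0.78 ± 0.187 for TMSB4X and 0.64 ± 0.139 for PLS3. The second was -1.64 ± 0.187 for TMSB4X, -1.06 ± 0.139 for PLS3 and -0.34 ± 0.106 for CNN3. After rescaling to equal sums the last 2 were -0.64 and -0.22, and that of CNN3 turned with a pseudocount of 5 (0.0044). For the actins the size of the first change is less sure. The authors' log2 fold changes went from 0.53 undifferentiated to -0.05 at 48 h for ACTB and from 0.49 to -0.42 for ACTG1, smaller changes in the same direction. Since the choice of the 10 genes used the same values, nothing is read from the counts of those called.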

How the data were processed

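Of tools and builds, kallisto, sleuth and hg38 are given in the submitters' processing notes; versions, annotation and scaling are not given in the sources used here. The authors deposited a signal per gene symbol (scaled TPM) for 18 libraries, and 3 tables of log2 fold changes with SE and p-values, per the file headers; those p-values were not used. Columns named thal and wen were read by name as HBBko and WT, and at each stage the HBB levels of thal libraries all lay below those of wen libraries.

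The 12005 genes with 1 scaled TPM or more in 3 or more libraries were fitted as log2(scaled TPM + 1) in limma 3.58.1 (R 4.3.3) with trend, in 1 fit of 18 libraries with 12 residual degrees of freedom and 9 contrasts. Tests were two-sided, Benjamini-Hochberg adjusted over all tested genes and called under 0.05; the fit was tested on simulated data. Members and lists were chosen with earlier results of these data known. Named list genes are the 4 called genes with the largest difference in each direction per contrast of 2 groups, members' relatives by family, and the 3 nearest genes by Pearson r. PFN1, CFL1, SRF, MRTFA and undifferentiated KRT19 were named, and the deposited tables compared, after values were seen. Alternatives changed the pseudocount, filter, scaling, libraries, weights and samples fitted. Same-numbered replicates deviated together (every correlation above 0.1) in 3 of 7 contrasts between groups, HBBko against WT undifferentiated (0.121 to 0.173) and at 5 d (0.131 to 0.180) and the first 48 h in WT (0.102 to 0.194).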

Additional observations from a re-analysis of the deposited data

Results flagged for a closer look

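Interaction terms of the limma fit were looked up for the list genes named for the largest called differences between HBBko and WT cells at a stage. For 16 of these genes the term was called, as a change in that difference between consecutive stages. Of all tested genes 13.2% were called for the first change and 24.6% for the second. Choosing genes by their difference at 1 stage favours a change between stages, so the count of 16 is a description. These 18 values kept their direction under every alternative run. Those of CORO1A and TPM4 over the first 48 h each lost the call under 7 alternatives, 5 of them without 1 library (adjusted p 0.070 to 0.079 and 0.052 to 0.062), and TPM4 also after rescaling to equal sums (0.065). Values are the later log2 difference of HBBko from WT minus the earlier one, with 3 libraries in each of the 4 groups involved.

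Between undifferentiated cells and 48 h the difference moved upwards for KRT19 by 1.09 (limma adjusted p = 0.0012), LCP1 by 0.68 (0.0046), CORO1A by 0.49 (0.028), RHOU by 0.47 (0.0076) and TMOD1 by 0.46 (0.016). It moved by -0.63 for TUBB2A (0.0029) and by -0.58 for TPM4 (0.026).

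Between 48 h and 5 d it moved by -1.93 for RHOC (2.4e-07) and -1.79 for VCL (2.4e-07). The move was -1.12 for CNN1 (6e-04), -0.99 for TPM4 (0.00025), -0.92 for FSCN1 (0.00031) and -0.88 for CYFIP1 (6.2e-05). TWF2 moved by -0.77 (0.0024), EZR by -0.76 (0.00034) and TUBB2A by -0.50 (0.0044). RAC2 moved upwards by 0.76 (6.1e-05) and RHOF by 0.58 (0.00063).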

How the results depend on the processing

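Among list genes named for the largest differences, 1497 alternative values kept direction and call, and 10 lost their call (TUBA1A, GSN and EZR at 48 h). For the other list genes with a printed p, 244 kept both, 25 lost the call (KRT19, CAPN1, CAPNS1, PFN1 and MRTFA) and 1 turned, CAPN1 at 5 d after rescaling to equal sums (0.082). PFN1 lost it where only the groups compared were fitted (0.053). For the 10 members 141 values moved by more than 1 SD between replicates. The sign turned in 29 values of 17 differences, among them actin, RHOB, CAPN5, TMSB4X, VIM, CAPN2 and PLS3 differences that were not called as deposited. Of the called ones 1 turned, CNN3's change in genotype difference from 48 h to 5 d with a pseudocount of 5 (0.0044). The number of list genes called higher and lower moved by more than 1.5 times as follows. Fitting only the groups compared gave 21 and 13 undifferentiated and 20 and 34 at 48 h, library weights 23 and 39 at 48 h, and no filter 7 higher at 48 h and 7 upwards for the change from 48 h to 5 d. Rescaling to equal sums gave 31 and 6 at 48 h and 58 and 16 at 5 d, 18 higher for the first 48 h in WT cells, 10 and 101 from 48 h to 5 d in WT and 11 higher in HBBko cells, and 11 and 7, then 24 and 17, for the changes in genotype difference. Without 1 library the HBBko counts ran from 26 to 40 higher and 16 to 22 lower undifferentiated, 7 to 12 and 8 to 23 at 48 h, and 19 to 26 and 41 to 50 at 5 d. At 48 h the count higher was 7 without HBBko replicate 3, and the count lower was 10 or 11 without WT replicate 2 or 3 and 10, 12 or 8 without HBBko replicate 1, 2 or 3. Steps ran from 25 to 29 and 63 to 72 in WT, then 37 to 41 and 52 to 60, and in HBBko 20 to 27 and 71 to 76, then 31 to 37 and 67 to 69. Changes in genotype difference ran from 4 to 8 and 10 to 22, the 10 without undifferentiated HBBko replicate 1, and from 6 to 11 and 25 to 36, with 6 or 7 upwards without WT replicate 2 or 3 or HBBko replicate 1 or 3 at 48 h, or WT replicate 1 or 3 or HBBko replicate 3 at 5 d. With the replicate number as a block, HBBko cells had 36 list genes higher and 21 lower undifferentiated, 10 and 21 at 48 h, and 25 and 46 at 5 d, and no count moved by over 1.5 times. The causes of these moves were not tested. Read depth is unknown, so no counting error can be given for low levels such as PLS3 in HBBko cells.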
